A study of Homo sapiens with 48 samples.

Results

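The genes described here are the protein kinase C isoforms PRKCA, PRKCB, PRKCD, PRKCE, PRKCH, PRKCQ, PRKCI and PRKCZ, the related kinase PRKD1, and RASGRP3, an exchange factor that loads RAS proteins with GTP. They were chosen by name, and all 10 are listed among the 58870 genes of the count files. RNA was measured by poly(A)-selected RNA-seq in 48 samples of 3 established uveal melanoma cell lines, 92-1, MEL202 and MP41, labelled wild type, in 16 groups of 3 biological replicates. Each line received FHT-1015, described by the submitters as an inhibitor of SMARCA4 and SMARCA2, the ATPases of the BAF chromatin remodelling complexes, or the solvent DMSO, for 4 h or 24 h. In line 92-1, IDE196, a protein kinase C inhibitor, was also given for 4 h or 24 h beside a DMSO set of its own. Doses are not given in the sources used here, and no group carries a genetic change made for the study. The labels call the replicates biological but do not state that they came from separate cultures. The p-values measure the spread between these samples, and whether it covers that between separate cultures is not known.

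Most uveal melanomas carry an activating mutation of a Gq-class G protein. Gq switches on phospholipase C, which cleaves a membrane lipid into a calcium-releasing messenger and diacylglycerol. Among the proteins that diacylglycerol recruits to the membrane are the conventional kinases PRKCA and PRKCB, which also need calcium, the calcium-independent kinases PRKCD, PRKCE, PRKCH and PRKCQ, and RAS exchange factors of the RASGRP family. The atypical kinases PRKCI and PRKCZ do not respond to diacylglycerol and act in cell polarity complexes. PRKD1, protein kinase D1, binds diacylglycerol and is switched on by protein kinase C. RASGRP3 is known for its high level in uveal melanoma, where it is phosphorylated by PRKCD and PRKCE and connects Gq to the RAS, RAF, MEK and ERK cascade.

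The members lie on separate loci of GRCh38, taken from GENCODE release 29. PRKCA (ENSG00000154229.12) spans chr17:66302636-66810743 and PRKCB (ENSG00000166501.13) chr16:23835946-24220611, both on the plus strand. PRKCD (ENSG00000163932.14) spans chr3:53156009-53192717, PRKCE (ENSG00000171132.14) chr2:45651345-46187990 and PRKCH (ENSG00000027075.15) chr14:61187559-61550976, all on the plus strand, and PRKCQ (ENSG00000065675.14) lies on the minus strand at chr10:6427143-6580301. PRKCI (ENSG00000163558.13) spans chr3:170222365-170305981 and PRKCZ (ENSG00000067606.17) chr1:2050470-2185395, both on the plus strand. PRKD1 (ENSG00000184304.15) lies on the minus strand at chr14:29576479-30191898, and RASGRP3 (ENSG00000152689.18) on the plus strand at chr2:33436324-33564750. Exon bases shared with other annotated genes numbered 939 of 7636 in PRKCZ (PRKCZ-AS1, FAAP20 and AL590822.2) and 908 of 8833 in PRKCH (TMEM30B, AL359220.1 and AL355916.2), 268 in PRKD1 and 70 in RASGRP3, and 0 in the other 6 members. The reads carry no strand, so sense and antisense reads over the shared bases cannot be told apart. Reads that were ambiguous between genes were tallied apart and are not part of a member's count. The shared bases remain in the exon length, so levels divided by that length may be understated for these members.

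The promoter windows of 4 members are printed as examples of responses to FHT-1015 in 92-1 and MEL202 at 24 h, where RASGRP3, PRKCD and PRKCE fell and PRKCH rose. Each window runs from 250 bases before to 50 bases after a RefSeq transcript start (GRCh38.p14). Of the 4 RASGRP3 windows, the 2 that hold a motif match are given. Capitals mark matches, on either strand, to TGANTCA (AP-1), CACGTG and CATGTG (E-boxes), ACAAAG (SOX), CCGGAAG (ETS) and GGGCGG (GC box).
RASGRP3, the first start, chr2:33436098-33436397, plus strand: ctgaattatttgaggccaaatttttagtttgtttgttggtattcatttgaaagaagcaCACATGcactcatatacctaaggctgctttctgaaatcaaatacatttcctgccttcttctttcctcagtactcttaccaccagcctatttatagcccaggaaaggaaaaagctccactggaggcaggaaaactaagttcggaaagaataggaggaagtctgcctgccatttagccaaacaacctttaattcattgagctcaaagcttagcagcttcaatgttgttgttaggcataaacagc
RASGRP3, the third start, chr2:33476399-33476698, plus strand: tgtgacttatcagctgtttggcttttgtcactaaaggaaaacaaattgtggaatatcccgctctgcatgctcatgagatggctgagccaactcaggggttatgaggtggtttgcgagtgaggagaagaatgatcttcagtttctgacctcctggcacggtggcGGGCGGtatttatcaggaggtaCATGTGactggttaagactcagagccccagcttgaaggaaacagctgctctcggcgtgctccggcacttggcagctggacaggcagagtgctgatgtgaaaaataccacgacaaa
PRKCD, the first start, chr3:53160959-53161258, plus strand: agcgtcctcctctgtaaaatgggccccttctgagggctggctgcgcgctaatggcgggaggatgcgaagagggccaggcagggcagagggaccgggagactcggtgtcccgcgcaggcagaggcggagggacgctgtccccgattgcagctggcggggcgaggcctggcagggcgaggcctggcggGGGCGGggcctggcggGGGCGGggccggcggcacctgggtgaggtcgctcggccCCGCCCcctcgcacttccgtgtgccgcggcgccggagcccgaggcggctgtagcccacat
PRKCE, chr2:45651425-45651724, plus strand: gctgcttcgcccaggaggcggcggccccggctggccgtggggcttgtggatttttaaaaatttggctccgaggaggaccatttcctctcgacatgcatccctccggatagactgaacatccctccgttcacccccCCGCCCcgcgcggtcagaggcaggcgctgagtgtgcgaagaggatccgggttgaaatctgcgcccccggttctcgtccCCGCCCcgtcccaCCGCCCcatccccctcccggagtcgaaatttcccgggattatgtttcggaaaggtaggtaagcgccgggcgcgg
PRKCH, chr14:61321329-61321628, plus strand: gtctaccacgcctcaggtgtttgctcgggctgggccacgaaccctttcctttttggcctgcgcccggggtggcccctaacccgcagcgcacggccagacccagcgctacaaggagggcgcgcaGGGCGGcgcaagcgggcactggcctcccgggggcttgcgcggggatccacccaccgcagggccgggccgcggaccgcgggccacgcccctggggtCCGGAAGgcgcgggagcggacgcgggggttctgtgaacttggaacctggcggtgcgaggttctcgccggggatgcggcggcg

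The 4 RASGRP3 windows were poor in G and C, with shares from 39.7% to 50.3%, against 74.3% in PRKCH, 64.7% in PRKCE and 57.7% to 76.7% in the 3 windows of PRKCD. All 10 members had a window, 19 in all, among 35116 windows of the same length in the table. A GC box was present in 12 of the 19 windows and in 45.0% of all windows. CATGTG, an E-box of the kind that the melanocyte factor MITF binds, was found in 3 of the 19 (both RASGRP3 windows printed above and PRKCQ), against 11.1% of all windows. CCGGAAG occurred in 1 of the 19, PRKCH, against 10.3% of all, while the AP-1, CACGTG and SOX motifs occurred in 0 of the 19, against 7.71%, 7.26% and 16.1% of all. The start of the printed PRKCD window lies 5200 bases downstream of the GENCODE gene start, that of the third RASGRP3 window 40325 and that of PRKCH 134020. Counts per gene do not tell which start was used.

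The libraries held between 11394088 and 32317711 reads in genes. The 4 sets of 12 samples that share a line and a drug are called experiments here, and each was fitted on its own. The library of MEL202 with FHT-1015 at 4 h, replicate 2, stood apart with 17592 genes detected, the fewest of the 48, and MEL202 calls that change without it are given both ways. For genes outside the 10 members this omission was chosen after the data were seen. PMEL, MLANA, TYR, TYRP1, MITF and SOX10 marked all 3 lines as melanocytic, while DCT averaged 1.09 CPM (counts scaled to library size) in MEL202 DMSO samples and S100B 0.346 and 0.0149 in the DMSO sets of 92-1. The summed level of 8 melanocyte markers in DMSO was at least 7890 CPM in every group. Of 10 markers of leukocytes, endothelium, fibroblasts, epithelium and retinal pigment epithelium, CD3E or RPE65 or both had 0 reads in 15 of the 16 groups, and the summed level was between 2.62 and 48.6 CPM in every library. Of those with enough reads to test, FHT-1015 at 24 h moved 3 of 4 in 92-1 (1 higher), 1 of 5 in MEL202 and 2 of 5 in MP41 (the others lower), and IDE196 moved 2 of 5 (1 higher), where 60.6%, 18.8%, 36.1% and 58.1% of all genes were called. Without the MEL202 library that stood apart COL1A1 was called there too (higher by 1.39, adjusted p = 0.0255). With FHT-1015 at 24 h all tested melanocyte markers fell, 7 of 7 in 92-1, 8 of 8 in MEL202 and 8 of 8 in MP41, with median log2 changes of -3.55, -2.22 and -1.94, where 31.4%, 10.1% and 18.7% of all genes fell; their part in the members' changes was not tested. In bulk RNA, fewer cells of a kind and less RNA per cell cannot be told apart.

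In DMSO the lines held different sets of these kinases. RASGRP3 had the highest mean per length in 92-1 and MEL202, though in MEL202 its range overlapped those of PRKCA and PRKCD. PRKCA was low in 92-1 and high in the other 2 lines, and PRKCH was high in MP41. Levels are given as CPM per kilobase of exon, over the 6 DMSO samples of a line (4 h and 24 h together). The length counts all annotated exons of a gene, not those of the transcripts present, and the order of genes depends on it. All 10 members differed among the lines (edgeR quasi-likelihood F-test over 36 samples, adjusted p under the 0.05 threshold used throughout), where 77.9% of all tested genes did.

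**Figure D1:**
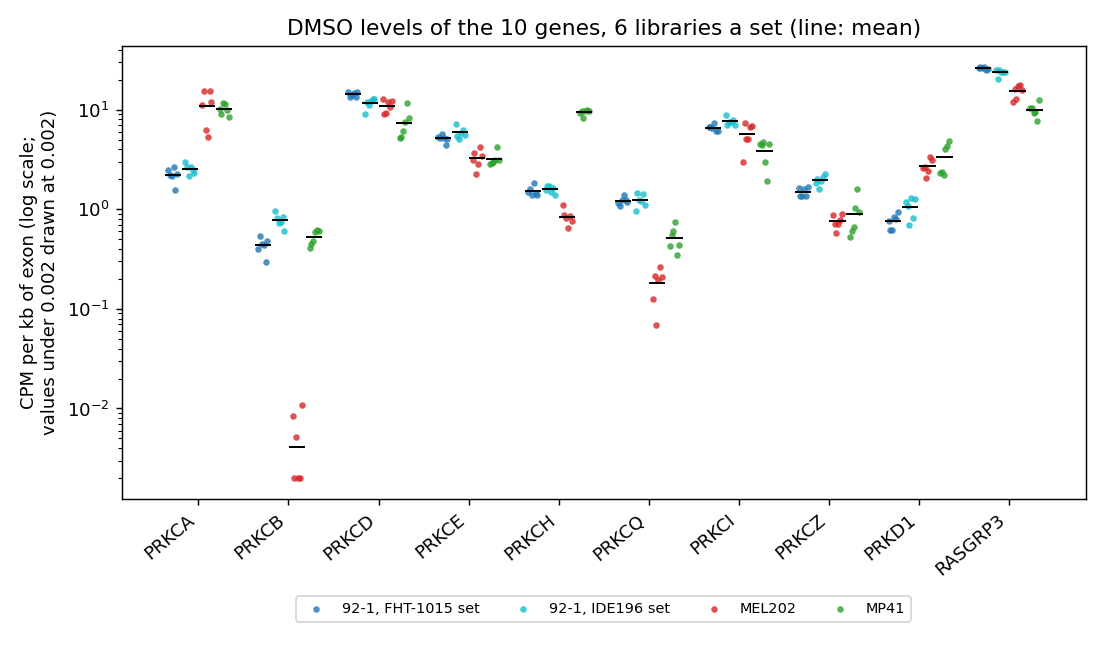
Levels of the 10 members in DMSO as CPM per kilobase of exon (log axis; values under 0.002 are drawn at 0.002), with 6 libraries for each of the 3 lines and for the second DMSO set of 92-1, and a line at each mean. RASGRP3 lies highest in 92-1, PRKCH has a mean of 9.48 in MP41 and means at or below 1.58 in the other sets, and PRKCB is close to 0 in MEL202.

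In 92-1, RASGRP3 stood at 26.4 ± 0.801 (SD, n = 6) CPM per kilobase, 43.8% of the summed level of the 10 members. PRKCD followed at 14.4 ± 0.745, then PRKCI at 6.62 and PRKCE at 5.2, and the other 6 members lay between 0.435 (PRKCB) and 2.22 (PRKCA). The ranges of RASGRP3 (25.2 to 27.3) and PRKCD (13.5 to 15.1) did not overlap. In the second DMSO set of 92-1 the first 5 places were held by the same genes in the same order, with RASGRP3 at 23.8 and PRKCD at 11.7. PRKCB, PRKCI, PRKCZ and PRKD1 were higher and PRKCD was lower in that second set than in the first, by log2 0.86, 0.24, 0.43, 0.51 and -0.27, so 5 of 10 members differed between 2 sets of 1 line, where 60.4% of all genes did. A difference between lines of this size therefore cannot be told apart from a difference between sets.

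MEL202 shared RASGRP3 at the top, at 15.3 ± 2.42 CPM per kilobase and 30.1% of the members' sum, but PRKCA and PRKCD followed level with each other at 11 ± 4.4 and 11 ± 1.57. Their ranges, 5.33 to 15.6 and 9 to 12.8, overlapped each other and that of RASGRP3, 11.9 to 17.7, so these neighbours did not differ beyond their spread. PRKCB, the other conventional isoform, had 0 to 6 reads in any MEL202 library and gives no fold change there. PRKCQ was also low, at 0.181.

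In MP41 no member stood above the rest: PRKCA (10.2, range 8.57 to 11.8), RASGRP3 (10, range 7.8 to 12.5) and PRKCH (9.48, range 8.36 to 9.88) overlapped. PRKCD came next at 7.37, with a range of 5.18 to 11.8. PRKCB and PRKCQ were lowest at 0.527 and 0.521.

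Between pairs of lines, leaving aside PRKCB with its few reads in MEL202, PRKCH had the widest gap of the members. It was 11.3-fold lower in MEL202 than in MP41 (log2 -3.50, adjusted p = 3.83e-20) and 6.32-fold lower in 92-1 than in MP41 (log2 -2.66, adjusted p = 1.13e-17). PRKCA was 5.03-fold lower in 92-1 than in MEL202 and 4.68-fold lower than in MP41 (adjusted p = 1.19e-10 for MP41), while it did not differ detectably between MEL202 and MP41 (log2 0.11). RASGRP3 was 1.70-fold higher in 92-1 than in MEL202 (adjusted p = 7.94e-07) and 2.58-fold higher than in MP41 (adjusted p = 4.23e-12), and 1.51-fold higher in MEL202 than in MP41.

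PRKD1 was 3.63-fold lower in 92-1 than in MEL202 and 4.28-fold lower than in MP41, and its difference between MEL202 and MP41 was not called (log2 -0.24, adjusted p = 0.122). PRKCE was 1.56-fold and 1.59-fold higher in 92-1 than in MEL202 and MP41, and PRKCQ 6.77-fold higher than in MEL202. In all, 9 of 10 members differed between 92-1 and MEL202, 9 of 10 between 92-1 and MP41 and 6 of 10 between MEL202 and MP41, where 52.9%, 65% and 56% of all genes did. The line and the sample set cannot be told apart for these levels. PRKCD, 1.28-fold higher in 92-1 than in MEL202 (adjusted p = 0.0231), lost its call with the second DMSO set of 92-1 (log2 0.09, adjusted p = 0.545), and PRKCB, not called between 92-1 and MP41 (log2 -0.29), was higher in 92-1 with that set (log2 0.58, adjusted p = 0.0398).

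Few members were called for time in culture alone. DMSO samples at 24 h against 4 h gave 0 members called in both sets of 92-1 and in MEL202, where 0.344%, 0.266% and 0% of all genes were called, and 1 of 10 in MP41, where 2.59% were. That gene was PRKD1, higher at 24 h by log2 0.86 ± 0.19 (SE, adjusted p = 0.0363), and the call was kept only without DMSO 24 h replicate 2 or 3 or FHT-1015 4 h replicate 1 or 3 (log2 0.82 to 0.91 with 1 library left out). Other MP41 members had differences of like size that were not called: PRKCZ (0.91, adjusted p = 0.067), PRKCD (0.64, adjusted p = 0.0758) and PRKCI (-0.59, adjusted p = 0.149). PRKCZ and PRKCD were called with no filter on low counts (adjusted p = 0.0155 and 0.0482) and by DESeq2 (0.0158 and 0.0253). The MP41 effects of FHT-1015 at 24 h are set against those 24 h DMSO samples.

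FHT-1015 lowered PRKCD, a kinase that phosphorylates RASGRP3, in all 3 lines by 24 h. With all libraries of a line in the fit, the 4 h fall was called in 92-1 only. PRKCE fell in all 3 lines at 24 h and RASGRP3 in 92-1 and MEL202, while PRKCH rose in 92-1 and MEL202 and PRKCA rose in MP41. In 92-1 4 of 10 members fell at 4 h and 0 rose, with 29.5% of all genes called, 12.9% higher and 16.7% lower. With all 48 samples in 1 fit the 4 h count was 1, PRKCD, and PRKCA, PRKCB and RASGRP3 were lost (adjusted p = 0.256, 0.0515 and 0.0651). At 24 h, 5 of 10 rose and 4 fell there, with 60.6% of all genes called, 29.2% higher and 31.4% lower. The median log2 change of the 10 members was -0.175 at 4 h and 0.12 at 24 h, beside 0.00714 and -0.000817 over all genes.

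In MEL202, 0 of 9 tested members were called at 4 h, where 0.679% of all genes were (0.157% higher, 0.522% lower), and 2 members had an unadjusted p under 0.05. At 24 h 5 of 9 were called in MEL202, 2 higher and 3 lower, where 18.8% of all genes were (8.69% higher, 10.1% lower). In MP41 0 of 10 were called at 4 h, where 0.225% of all genes were (0.0708% higher, 0.154% lower), and 1 had an unadjusted p under 0.05. At 24 h 3 of 10 were called in MP41, 1 higher and 2 lower, where 36.1% of all genes were (17.4% higher, 18.7% lower). The median log2 change of the members at 24 h was 0.77 in MEL202 and -0.275 in MP41, beside -0.00551 and 0.0651 over all genes. By DESeq2 the 4 h counts were 1 in MEL202 (PRKCD) and 0 in MP41.

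**Figure D2:**
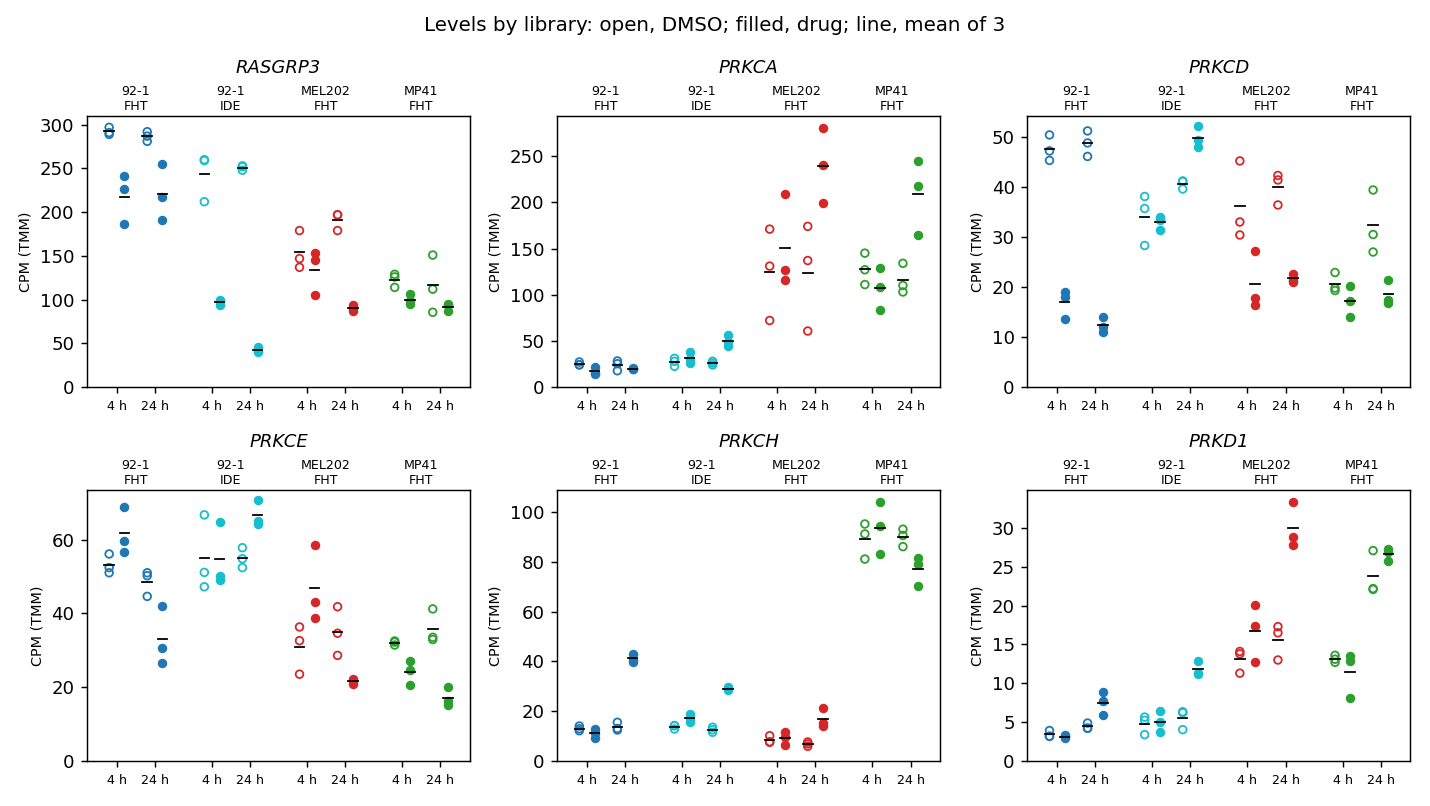
TMM-normalised CPM in each library for RASGRP3, PRKCA, PRKCD, PRKCE, PRKCH and PRKD1, in each experiment at 4 h and 24 h (open points DMSO, filled points drug, lines the mean of 3). PRKCD libraries with FHT-1015 lie below their DMSO libraries in 92-1 at both times and in the other lines at 24 h, and RASGRP3 with IDE196 at 24 h lies between 40.3 and 45.4 against 248 to 253 in DMSO.

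PRKCD is taken first among the calcium-independent kinases. In 92-1 its TMM-normalised CPM was 50.4, 45.3 and 47.2 in DMSO and 18.1, 13.7 and 19 with FHT-1015 at 4 h. At 24 h it was 48.8, 46.1 and 51.2 in DMSO and 12, 11 and 14.1 with the drug. Every treated library lay below every DMSO library at both times. PRKCD fell 2.82-fold at 4 h (log2 -1.49 ± 0.12, adjusted p = 2.81e-07) and 3.91-fold at 24 h (log2 -1.97 ± 0.13, adjusted p = 3.67e-09).

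In MEL202 PRKCD was 45.2, 30.4 and 33.0 CPM in DMSO and 17.9, 27.3 and 16.5 with FHT-1015 at 4 h, and 41.4, 36.4 and 42.3 against 21.1, 22.7 and 21.4 at 24 h. The groups did not overlap at either time, but the 4 h difference was not called (log2 -0.82 ± 0.23, adjusted p = 0.171), and the highest treated value came from the library with the fewest genes. Without that library the 4 h difference was called (log2 -1.07, adjusted p = 0.0347). With all libraries the 24 h effect minus the 4 h effect was -0.07 ± 0.32 (adjusted p = 0.942), which was not called. At 24 h PRKCD fell 1.84-fold (log2 -0.88 ± 0.23, adjusted p = 0.0152), a call lost without DMSO 24 h replicate 3 or any 1 of the 3 treated 24 h libraries, with log2 values of -0.95 to -0.84 over the 12 omissions.

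MP41 started from lower PRKCD, 19.3, 19.8 and 22.9 CPM at 4 h and 27.0, 39.4 and 30.5 at 24 h in DMSO, against 14.1, 17.2 and 20.3 and 17.4, 16.9 and 21.5 with FHT-1015. The groups overlapped at 4 h and were apart at 24 h, when PRKCD fell 1.74-fold (log2 -0.80 ± 0.19, adjusted p = 0.00517). The 24 h effect minus the 4 h effect was not called in MP41 (-0.54 ± 0.27, adjusted p = 0.182). DMSO libraries of MP41 held more PRKCD at 24 h than at 4 h, a difference not called (log2 0.64, adjusted p = 0.0758). The effect on PRKCD differed among the lines at both times, with the largest fall in 92-1 (adjusted p = 0.0282 at 4 h and 0.00611 at 24 h). At 4 h this was 1 of 10 members, with 1.38% of all genes, and the call was lost in 9 of 36 omissions of 1 library (92-1 DMSO 4 h replicates 1, 2 and 3 and FHT-1015 4 h replicates 1 and 2; MP41 DMSO 4 h replicates 1 and 2 and FHT-1015 4 h replicates 2 and 3), with adjusted p from 0.00949 to 0.131.

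PRKCE, the other kinase known to act on RASGRP3, fell at 24 h in every line and was called in none at 4 h. In 92-1 it was 50.2, 44.6 and 51.0 CPM in DMSO and 26.5, 30.7 and 42.1 with FHT-1015 at 24 h, and in MP41 32.9, 41.2 and 33.5 against 19.9, 16.1 and 15.2. MEL202 had 28.6, 41.8 and 34.6 against 20.9, 21.7 and 22.2 at that time. No treated library reached its DMSO range in the 3 lines. The falls were 1.46-fold in 92-1 (log2 -0.55 ± 0.14, adjusted p = 0.00269), 1.62-fold in MEL202 (log2 -0.70 ± 0.23, adjusted p = 0.0491) and 2.1-fold in MP41 (log2 -1.07 ± 0.16, adjusted p = 0.000225).

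At 4 h the treated libraries of 92-1 held 68.8, 59.6 and 56.6 CPM of PRKCE against 52.4, 51.0 and 56.1 in DMSO, and those of MEL202 43.2, 58.6 and 38.7 against 32.6, 36.3 and 23.5. All treated values were above all DMSO values, yet neither difference was called (log2 0.22, adjusted p = 0.248, and log2 0.60, adjusted p = 0.411, or 0.41, adjusted p = 0.61, without the MEL202 library with the fewest genes). In MP41 the 4 h values lay the other way, 20.7, 24.7 and 27.1 against 31.4, 32.2 and 32.5, also not called (log2 -0.40, adjusted p = 0.683). The 24 h effect minus the 4 h effect was -0.77 ± 0.19 in 92-1 (adjusted p = 0.00415) and -1.30 ± 0.32 in MEL202 (adjusted p = 0.0288). In MP41 it was -0.67 ± 0.23 and not called (adjusted p = 0.0591), so a difference between the times was not shown there.

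Both MEL202 calls for PRKCE rested on single libraries. The 24 h call was lost without DMSO 24 h replicate 2 or 3, FHT-1015 4 h replicate 1 or 3 or any treated 24 h library (log2 -0.82 to -0.55), and also with other size factors (adjusted p = 0.055 and 0.06) or no filter on low counts (0.0838). The call for the difference of times was lost without DMSO 24 h replicate 2 or 3, FHT-1015 4 h replicate 1 or any treated 24 h library (log2 -1.43 to -1.11).

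PRKCH, the eta isoform, went up where it had been low. In 92-1 it was 15.5, 13 and 12.4 CPM in DMSO and 40.7, 39.9 and 43.1 with FHT-1015 at 24 h, and in MEL202 5.85, 7.59 and 6.82 against 15.1, 14 and 21.4. Both groups of treated libraries lay wholly above DMSO. PRKCH rose 3.01-fold in 92-1 (log2 1.59 ± 0.12, adjusted p = 2.51e-08) and 2.50-fold in MEL202 (log2 1.32 ± 0.27, adjusted p = 0.00364).

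In MP41, the line with high PRKCH, the 24 h values were 90.6, 86.1 and 93.1 CPM in DMSO and 81.6, 70.4 and 79.1 with FHT-1015. The treated values were lower without overlap, and the difference was not called (log2 -0.22 ± 0.13, adjusted p = 0.208). The 24 h effect on PRKCH differed among the lines (adjusted p = 2.37e-06). At 4 h no line had a called change, with log2 -0.23 in 92-1, and the 24 h effect exceeded the 4 h effect by 1.82 ± 0.18 in 92-1 (adjusted p = 9.38e-07). Over the 3 lines at 24 h, 4 of 10 members (PRKCD, PRKCH, PRKCZ and RASGRP3) differed among lines, where 12% of all genes did.

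PRKCQ, the theta isoform best known from T cells, was scarce in all lines. In 92-1 at 24 h it rose from 4.41, 4.07 and 3.94 CPM to 7.16, 8.56 and 8.67, without overlap, a 1.96-fold increase (log2 0.97 ± 0.18, adjusted p = 0.000188). MEL202 values were 0.663, 0.876 and 0.707 against 1.12, 1.83 and 1.48, apart but without a call (log2 0.98 ± 0.48, adjusted p = 0.187), and MP41 gave log2 -0.11.

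Among the conventional kinases, PRKCA was called lower in 92-1 at 4 h and higher in MP41 at 24 h, and a difference among lines was called at neither time (adjusted p = 0.729 at 4 h and 0.106 at 24 h). In 92-1 at 4 h it was 27.2, 24.2 and 24.0 CPM in DMSO and 21.7, 15.2 and 14 with FHT-1015, and it fell 1.47-fold (log2 -0.56 ± 0.17, adjusted p = 0.0203). This call was lost without DMSO 4 h replicate 1 or FHT-1015 4 h replicate 2 or 3 (log2 -0.78 to -0.45 over the omissions). At 24 h in 92-1 the values were 28.3, 17.7 and 25.3 against 21.1, 19.1 and 20.1, which overlapped (log2 -0.24, adjusted p = 0.228). Without the lowest DMSO library, replicate 2, the 24 h fall was called (log2 -0.43).

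MP41 showed the rise. PRKCA was 134, 110 and 103 CPM in DMSO and 245, 165 and 218 with FHT-1015 at 24 h, all treated values being higher, and it rose 1.81-fold (log2 0.85 ± 0.19, adjusted p = 0.00385). At 4 h it had been 127, 111 and 145 against 83.7, 108 and 129, and the effects at the 2 times differed by 1.1 ± 0.27 (adjusted p = 0.0127). In MEL202 at 24 h PRKCA was 60.7, 174 and 137 against 240, 199 and 280, apart but widely spread in DMSO, and was not called (log2 0.95 ± 0.38, adjusted p = 0.102).

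PRKCB, the beta isoform, was read at 15 to 112 reads a library in the 92-1 samples of this experiment. Its CPM at 4 h was 4.36, 5.94 and 4.9 in DMSO and 2.42, 2.7 and 1.89 with FHT-1015, and at 24 h 4.73, 3.27 and 5.36 against 1.02, 1.82 and 1.98. Treated and DMSO libraries were apart at both times, and PRKCB fell 2.15-fold at 4 h (log2 -1.1 ± 0.25, adjusted p = 0.00326) and 2.76-fold at 24 h (log2 -1.46 ± 0.27, adjusted p = 0.000234). In MP41 at 24 h it was 6.97, 6.74 and 7.34 against 5.61, 3.16 and 4.55, apart but not called (log2 -0.67 ± 0.27, adjusted p = 0.0702).

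The atypical kinases were called with FHT-1015 in 92-1 at 24 h. PRKCI in 92-1 at 24 h was 41, 36.2 and 35.7 CPM in DMSO and 56.5, 48.1 and 52.9 with FHT-1015, a 1.39-fold rise (log2 0.48 ± 0.11, adjusted p = 0.00112). Its log2 differences of 0.38 in MEL202 and 0.61 in MP41 were not called (adjusted p = 0.363 and 0.0753). PRKCZ in 92-1 at 24 h was 11.8, 10.4 and 12.8 against 16.9, 16.9 and 14.8, also a 1.39-fold rise (log2 0.48 ± 0.14, adjusted p = 0.00635). Both gains were without overlap, but neither passed when all 48 samples shared a fit (adjusted p = 0.0557 for PRKCI and 0.0534 for PRKCZ).

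In MP41 PRKCZ lay the other way at 24 h, 8.43, 12.1 and 7.77 CPM in DMSO and 5.61, 6.65 and 6.29 with FHT-1015. The difference was not called (log2 -0.61 ± 0.25, adjusted p = 0.0718), but it was with the 2 stranded columns summed (log2 -0.61, adjusted p = 0.0244) and with the replicate number as a block (log2 -0.59, adjusted p = 0.0462). MEL202 had 5.54, 6.02 and 6.98 against 9.08, 11.9 and 10.7, not called with all libraries (log2 0.77 ± 0.28, adjusted p = 0.0732) and called without the library with the fewest genes (adjusted p = 0.036). The effects among lines differed at 24 h (adjusted p = 0.00559).

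PRKD1, protein kinase D1, rose at 24 h in the 2 lines where PRKCH rose. It went from 4.23, 4.19 and 4.87 CPM to 7.71, 5.94 and 8.85 in 92-1, 1.70-fold (log2 0.77 ± 0.18, adjusted p = 0.00162). In MEL202 it went from 13, 17.3 and 16.5 to 33.4, 28.8 and 27.8, 1.92-fold (log2 0.94 ± 0.22, adjusted p = 0.00851). Neither pair of groups overlapped. MP41 gave 22.1, 22.2 and 27.1 against 26.9, 27.3 and 25.7, which overlapped (log2 0.16 ± 0.18, adjusted p = 0.524), and the difference among lines had an adjusted p of 0.0532.

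RASGRP3 itself fell with FHT-1015 in 92-1 and MEL202. In 92-1 it was 289, 297 and 291 CPM in DMSO and 241, 226 and 186 with the drug at 4 h, and 292, 281 and 287 against 191, 217 and 255 at 24 h. All treated libraries were lower, and the falls of 1.34-fold (log2 -0.42 ± 0.11, adjusted p = 0.00665) and 1.30-fold (log2 -0.38 ± 0.11, adjusted p = 0.00617) did not differ detectably between the times (0.05, adjusted p = 0.815).

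In MEL202 RASGRP3 was 137, 179 and 147 CPM in DMSO and 153, 105 and 145 with FHT-1015 at 4 h, which overlapped (log2 -0.20, or -0.05 without replicate 2, not called in either), and 197, 197 and 179 against 89.6, 87.3 and 93.4 at 24 h, which did not. The 24 h fall was 2.12-fold (log2 -1.09 ± 0.19, adjusted p = 0.0016). In MP41 the 24 h values were 112, 85.6 and 151 against 87.5, 93.5 and 95.4, overlapping and not called (log2 -0.33 ± 0.17, adjusted p = 0.154). The lines differed at 24 h (adjusted p = 0.0302), a call lost in 10 of 36 omissions of 1 library: 92-1 DMSO 24 h replicates 2 and 3 and FHT-1015 24 h replicate 3, MEL202 DMSO 24 h replicates 1 and 2 and FHT-1015 24 h replicates 1, 2 and 3, and MP41 DMSO 24 h replicate 1 and FHT-1015 24 h replicate 3. The adjusted p over the omissions ran from 0.00398 to 0.0857, and it was 0.141 with no filter on low counts.

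**Figure D3:**
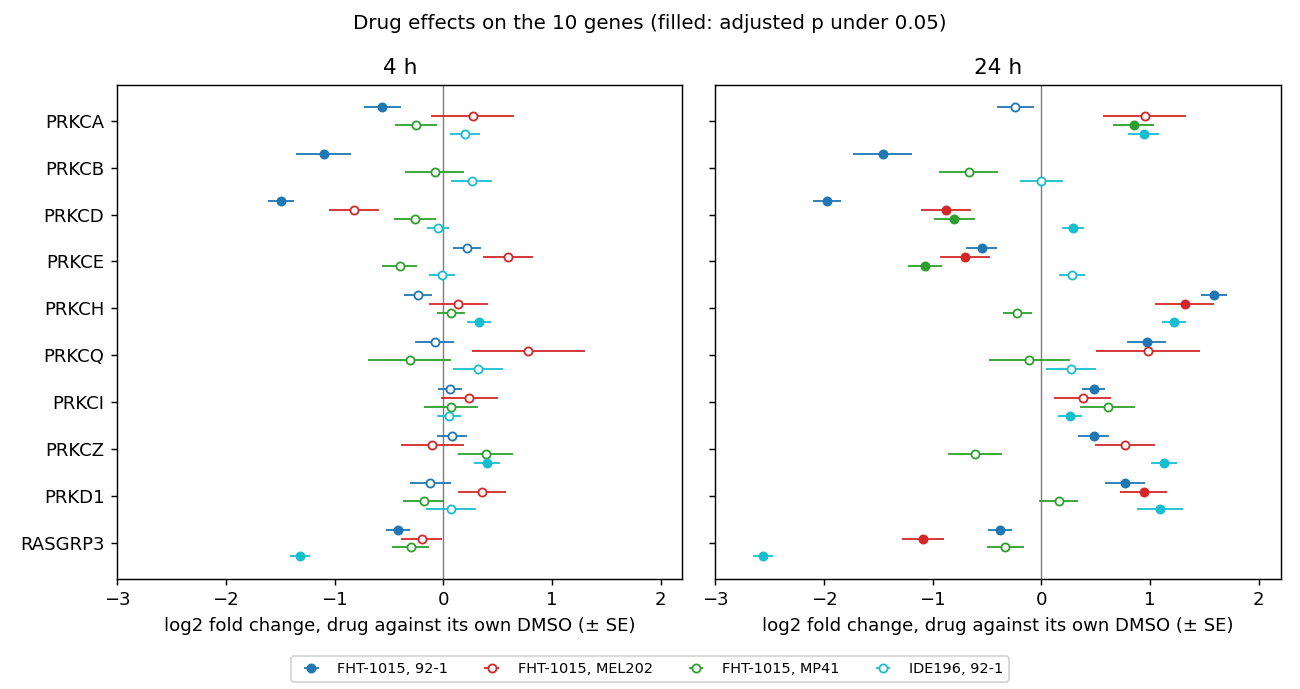
Log2 change with its SE for the 10 members in the 4 experiments, at 4 h and at 24 h (filled points, adjusted p under 0.05). PRKCD lies below 0 with FHT-1015 in the 3 lines and above 0 with IDE196 at 24 h, and the lowest point is RASGRP3 with IDE196 at 24 h, -2.56.

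A test of the 24 h effect of FHT-1015 against its 4 h effect called 6 of 10 members in 92-1, 1 of 9 in MEL202 and 1 of 10 in MP41, where it called 45.5%, 6.89% and 18.6% of all genes. Besides PRKCE and PRKCH, the 92-1 genes were PRKCD (-0.48 ± 0.18, adjusted p = 0.0372), PRKCQ (1.05 ± 0.25, adjusted p = 0.00328), PRKCI (0.42 ± 0.15, adjusted p = 0.0327) and PRKD1 (0.89 ± 0.26, adjusted p = 0.0113). The calls for PRKCD and PRKCI were each lost in 8 of 12 omissions. PRKCD kept its call without DMSO 4 h replicate 1, DMSO 24 h replicate 2, FHT-1015 4 h replicate 2 or FHT-1015 24 h replicate 3 (-0.62 to -0.40 over the omissions). PRKCI kept its call without DMSO 24 h replicate 1, FHT-1015 4 h replicate 1 or FHT-1015 24 h replicate 2 or 3 (0.34 to 0.54). Without the MEL202 library with the fewest genes, PRKCH (1.38) and RASGRP3 (-1.04) were called there too, which made 3 of 9.

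The make-up of the 8 protein kinase C isoforms of 92-1 shifted with FHT-1015. Their summed level per kilobase was 32.9 ± 2.67 (SD, n = 3) in DMSO at 24 h and 27.9 ± 1.67 with FHT-1015, without overlap. PRKCD made up 44.1% ± 1.67 of that sum in DMSO, the largest share, and 13.4% ± 0.912 with the drug, while PRKCI went from 19.8% ± 1.29 to 33.1% ± 2.51 and PRKCH from 4.74% ± 0.477 to 17.2% ± 0.333. The largest share passed from PRKCD to PRKCI, and none of these ranges overlapped between DMSO and drug. The order of isoforms rests on division by exon length, 3.396 kb for PRKCD, 5.841 kb for PRKCI and 9.908 kb for PRKCE. Before that division PRKCD and PRKCE overlapped in CPM in DMSO at 24 h.

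In MEL202 and MP41 PRKCA made up more of the isoforms with the drug. In MEL202 its share of the isoforms at 24 h was 31% ± 10.1 in DMSO and 50.9% ± 3.85 with FHT-1015, and in MP41 26.4% ± 3.78 and 45.0% ± 3.68. PRKCD went from 35.2% ± 8.83 to 15.3% ± 1.93 and from 24.1% ± 4.57 to 13.2% ± 1.72, without overlap in either line. PRKCH also went from 2.23% ± 0.177 to 4.5% ± 0.66 in MEL202, without overlap, while in MP41 it went from 25.8% ± 1.22 to 21.1% ± 0.94. The summed level was 34.1 ± 6.54 in DMSO and 40.8 ± 4.09 with FHT-1015 in MEL202, and 37.9 ± 2.19 and 38.3 ± 4.35 in MP41, overlapping in both. These shares carry no test, and a fall of 1 isoform raises the shares of the others.

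IDE196, which inhibits protein kinase C enzymes, lowered RASGRP3 further than FHT-1015 did and raised 6 of the 9 kinases by 24 h. At 4 h, 3 of 10 members were called, 2 higher and 1 lower, where 16.2% of all genes were (6.89% higher, 9.3% lower). At 24 h, 7 of 10 were called, 6 higher and 1 lower, where 58.1% of all genes were (28.7% higher, 29.4% lower). The median log2 change of the members was 0.135 at 4 h and 0.285 at 24 h, beside 0.0139 and 0.0287 over all genes.

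RASGRP3 was 259, 212 and 260 CPM in DMSO and 100, 93.5 and 98.1 with IDE196 at 4 h, and 253, 252 and 248 against 45.4, 41.6 and 40.3 at 24 h. The highest treated value was below the lowest DMSO value at both times by a wide margin. It fell 2.50-fold at 4 h (log2 -1.32 ± 0.09, adjusted p = 2.65e-08) and 5.91-fold at 24 h (log2 -2.56 ± 0.09, adjusted p = 1.78e-12), and the later effect was larger by log2 -1.24 ± 0.13 (adjusted p = 1.49e-06).

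PRKCH and PRKCZ rose at both times. PRKCH was 12.5, 13.5 and 11.5 CPM in DMSO and 29.3, 29.6 and 28.3 with IDE196 at 24 h, a 2.33-fold rise (log2 1.22 ± 0.11, adjusted p = 4.02e-08). PRKCZ was 13.9, 15.2 and 16.5 against 32.3, 31.6 and 35.9, a 2.19-fold rise (log2 1.13 ± 0.12, adjusted p = 3.69e-07). At 4 h the rises were 1.26-fold for PRKCH (log2 0.33 ± 0.11, adjusted p = 0.0436) and 1.32-fold for PRKCZ (log2 0.40 ± 0.12, adjusted p = 0.0322), and both groups were apart from DMSO.

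These 4 h calls were close to the threshold. PRKCH kept its call only without DMSO 24 h replicate 6 or IDE196 4 h replicate 1 (log2 0.26 to 0.40 over 12 omissions), and lost it with no filter (adjusted p = 0.165), with only the 6 samples compared (0.0924) or with all 48 in 1 fit (0.317). PRKCZ lost its call without DMSO 4 h replicate 4 or 6 or IDE196 4 h replicate 2 or 3 (log2 0.30 to 0.49), and with the stranded columns summed (log2 0.24, adjusted p = 0.166), only the 6 samples (0.0754) or all 48 (0.347). The increase from 4 h to 24 h was called for both, 0.89 ± 0.15 for PRKCH (adjusted p = 0.00028) and 0.73 ± 0.17 for PRKCZ (adjusted p = 0.00358).

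PRKCA rose at 24 h with IDE196, from 28, 26 and 24 CPM to 44.7, 48.4 and 56.6, 1.92-fold (log2 0.94 ± 0.14, adjusted p = 2.03e-05). PRKD1 rose from 6.33, 4.02 and 6.21 to 11.2, 11.3 and 12.9, 2.13-fold (log2 1.09 ± 0.21, adjusted p = 0.000301). Treated and DMSO libraries were apart for both genes. The 24 h effect exceeded the 4 h effect by 0.74 ± 0.2 for PRKCA (adjusted p = 0.00951) and by 1.02 ± 0.31 for PRKD1 (adjusted p = 0.0197), the latter lost without DMSO 24 h replicate 5 or IDE196 4 h replicate 2 (0.83 to 1.23). In all, 5 of 10 members changed between the times, where 30.7% of all genes did.

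Smaller rises at 24 h were those of PRKCD and PRKCI. PRKCD was 39.6, 41.2 and 41.1 CPM in DMSO and 52.1, 49.4 and 48 with IDE196, 1.23-fold higher without overlap (log2 0.29 ± 0.10, adjusted p = 0.0194), and lost its call without DMSO 24 h replicate 4 or IDE196 24 h replicate 1 (log2 0.26 to 0.32). PRKCI rose 1.20-fold (log2 0.26 ± 0.11, adjusted p = 0.0428), a call lost without any 1 of the 3 DMSO 24 h libraries, IDE196 4 h replicate 2 or IDE196 24 h replicate 2 or 3 (log2 0.21 to 0.30). Neither passed when all 48 samples shared a fit (adjusted p = 0.11 for PRKCD and 0.257 for PRKCI). PRKCE had 54.8, 57.8 and 52.4 against 70.7, 65.0 and 64.2, higher without overlap but not called (log2 0.28 ± 0.12, adjusted p = 0.0667), and PRKCB and PRKCQ gave log2 0.00 and 0.27.

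With IDE196 the sum of the 8 isoforms was higher than in DMSO. Their summed level per kilobase was 34.3 ± 1.17 (SD, n = 3) in DMSO and 48.6 ± 1.0 with IDE196 at 24 h, with no overlap and no test. PRKCD held the largest share in both, 37.2% ± 1.32 and 33.3% ± 1.81, while PRKCZ went from 6.17% ± 0.63 to 9.87% ± 0.502.

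IDE196 and FHT-1015 were set against each other in 92-1 as a difference of effects, in 1 fit of 24 samples that kept both DMSO sets. RASGRP3 fell more with IDE196 than with FHT-1015, by log2 -0.90 ± 0.14 at 4 h (adjusted p = 2.34e-05) and -2.19 ± 0.14 at 24 h (adjusted p = 2.25e-12). PRKCD differed in the other direction, by 1.45 at 4 h (adjusted p = 1.62e-07) and 2.26 ± 0.17 at 24 h (adjusted p = 2.05e-11), falling with FHT-1015 and not with IDE196. At 4 h 5 of 10 members differed, 4 higher with IDE196 and 1 lower, where 24.6% of all genes did (14% higher, 10.7% lower). At 24 h 6 of 10 differed, 5 higher and 1 lower, where 33% did (17.1% higher, 15.9% lower).

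**Figure D4:**
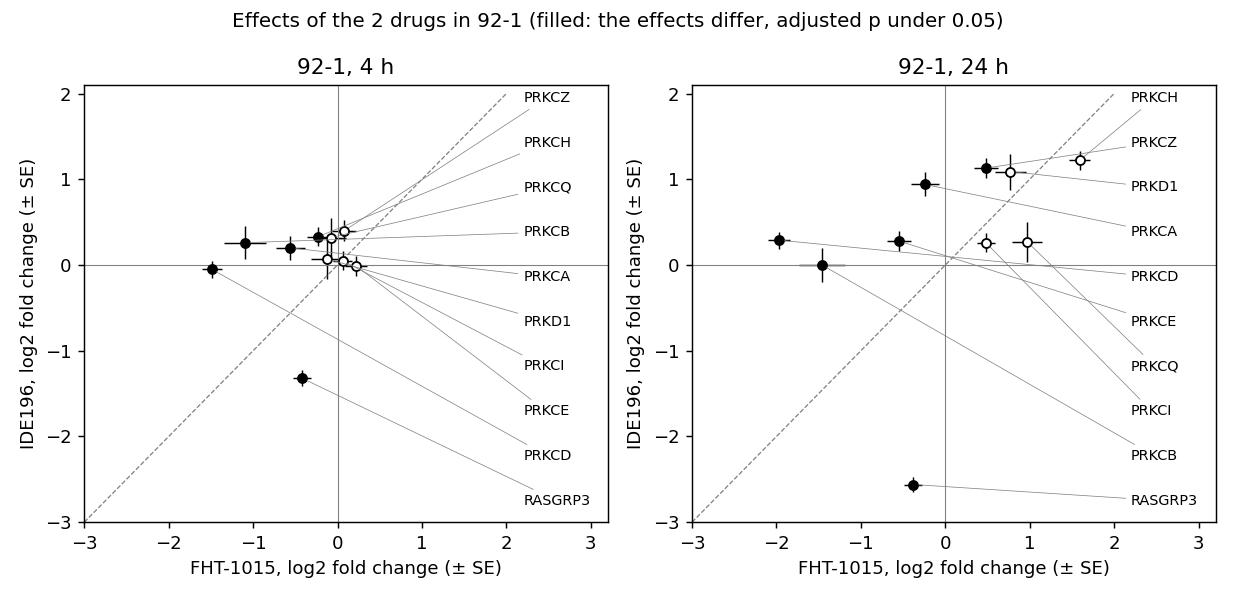
Log2 change with FHT-1015 (x axis) against log2 change with IDE196 (y axis) in 92-1 at 4 h and 24 h, with SE bars for the 10 members, a dashed line where the effects are equal, and filled points where they differ at an adjusted p under 0.05. RASGRP3 lies far below the line and PRKCD far above it at both times, while PRKCH lies near the line at 24 h.

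Besides RASGRP3 and PRKCD, the members that differed at both times were PRKCA (0.77 at 4 h, adjusted p = 0.0158; 1.19 at 24 h, adjusted p = 0.000221) and PRKCB (1.36, adjusted p = 0.00204; 1.46, adjusted p = 0.00154). PRKCH differed at 4 h (0.56, adjusted p = 0.0121, or 0.065 with no filter on low counts), and PRKCE (0.83, adjusted p = 0.00156) and PRKCZ (0.65, adjusted p = 0.00617) at 24 h. The 4 h call for PRKCA was lost without FHT-1015 4 h replicate 2 or 3, DMSO 4 h replicate 6 or IDE196 4 h replicate 1 (0.60 to 0.98 over 24 omissions). At 24 h PRKCH (-0.37 ± 0.16, adjusted p = 0.0786), PRKD1 (0.32 ± 0.29, adjusted p = 0.443) and PRKCI (-0.22, adjusted p = 0.302) rose with both drugs and were not shown to differ between them, which does not show that the drugs act alike on them. With library size alone as the scale PRKCH did differ (-0.40, adjusted p = 0.0471). KRT5, an epithelial keratin, ranged from 0.176 to 11.6 CPM in the IDE196 experiment and was at or below 0.0629 in the FHT-1015 experiment of 92-1, and its part in the difference between drugs was not tested.

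Other genes of the same pathway were counted from lists of relatives and partners. Up to 2 called genes of a list are named in each comparison, so a gene may have changed where it is not named. Of 11 relatives and other diacylglycerol effectors, FHT-1015 at 24 h moved 1 of 6 tested in 92-1 (lower), 1 of 8 in MEL202 (lower) and 2 of 9 in MP41 (1 higher, 1 lower). These are 16.7%, 12.5% and 22.2% of those tested, where 60.6%, 18.8% and 36.1% of all genes were called. Without the MEL202 library with the fewest genes CHN2 was also called there (2.35, adjusted p = 0.0476). PKN3, a kinase close to protein kinase C that lacks diacylglycerol binding, was the falling gene in all 3, by log2 -1, -0.79 and -0.84 (adjusted p = 1.11e-05, 0.0172 and 0.00376), and PKN2 was the rising one in MP41 (1.13). With IDE196 at 24 h, 1 of 6 rose (PRKD3, a protein kinase D, 0.62) and 1 fell (PKN3, -0.51), where 58.1% of all genes were called, PKN3 having been higher at 4 h (0.52, adjusted p = 0.029). RASGRP1, tested in 3 of the 4 experiments, was not called.

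Upstream, among 12 genes for Gq and phospholipases C, FHT-1015 at 24 h gave 2 higher and 6 lower of 11 in 92-1, 1 higher and 2 lower of 11 in MEL202, and 2 higher and 6 lower of 10 in MP41, where 60.6%, 18.8% and 36.1% of all genes were called. PLCE1, a phospholipase C regulated by RAS, fell in all 3 lines (log2 -1.32, -1.35 and -0.96), and PLCB2 fell in 92-1 and MP41 (-1.34 in each). PLCB2 also fell in MEL202 (-2.01), where its mean of 3.18 CPM was under the minimum for naming a gene, and this value was chosen after it was seen. PLCD1 rose there (1.32), and PLCB1 was called higher without the library with the fewest genes (0.8, adjusted p = 0.045). PLCE1 and PLCB2 had been higher in 92-1 at 4 h, by 0.66 (adjusted p = 0.0115) and 0.47 (adjusted p = 0.0309). PLCE1 fell with IDE196 at 4 h (-0.61, adjusted p = 0.0268). With IDE196 at 24 h, 3 were higher and 6 lower of 11, where 58.1% of all genes were called. PLCB1, a phospholipase C that Gq activates, fell by 3.10 on the log2 scale (adjusted p = 1.83e-11), while PLCD1 rose (log2 2.44, adjusted p = 3.82e-10). List medians at 24 h were -0.48, -0.05, -0.65 and -0.29 in 92-1, MEL202, MP41 and with IDE196, beside -0.000817, -0.00551, 0.0651 and 0.0287 over all genes.

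Diacylglycerol kinases convert diacylglycerol to phosphatidic acid and so end its signal. DGKI fell with FHT-1015 at 24 h in 92-1 (log2 -3.97, 15.6-fold, adjusted p = 1.58e-09) and MEL202 (-3.22, adjusted p = 0.000125), and already at 4 h (-1.93, and -2.33 or -2.49 with and without the library with the fewest genes), and rose with IDE196 (0.47 at 4 h and 1.17 at 24 h, adjusted p = 8.03e-08), a difference between drugs that was not tested. DGKH rose with FHT-1015 at 24 h in 92-1 (0.56), MEL202 (1.37) and MP41 (1.79). DGKE fell with IDE196 (-1.21 at 4 h, -1.13 at 24 h). Of 9 listed genes, 3 were higher and 4 lower of 7 tested in 92-1 at 24 h, 2 and 1 of 8 in MEL202, 2 and 1 of 8 in MP41, and 2 and 3 of 8 with IDE196, where 60.6%, 18.8%, 36.1% and 58.1% of all genes were called.

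Of 15 partners, regulators and substrates of protein kinase C, 9 fell and 1 rose in 92-1 after 4 h of FHT-1015, with a list median of -0.47, where 16.7% of all genes fell, 12.9% rose and the median was 0.00714. PHLPP2, a phosphatase that removes an activating phosphate from protein kinase C, fell (log2 -1.26), beside LLGL2 (-1.06), a polarity protein that atypical kinases phosphorylate. In MEL202 and MP41 0 of 15 were called at 4 h, with list medians of -0.08 and 0.04, where 0.679% and 0.225% of all genes were called. At 24 h, 6 rose and 3 fell in 92-1, 3 rose and 0 fell in MEL202, and 2 rose and 2 fell in MP41. With IDE196 3 rose and 0 fell at 4 h and 6 rose and 2 fell at 24 h. Without the library with the fewest genes LLGL1 was called in MEL202 too (0.62, adjusted p = 0.0333). The shares of all genes called were 60.6%, 18.8% and 36.1% with FHT-1015 at 24 h, and 16.2% and 58.1% with IDE196 at 4 h and 24 h. The phosphatase PHLPP1 was higher in 92-1 at 24 h with both drugs (0.67 with FHT-1015 and 1.22 with IDE196). MARCKS, a membrane-bound substrate of protein kinase C, rose in MEL202 with FHT-1015 at 24 h (0.64) and in 92-1 with IDE196 at 4 h (0.54).

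The RAS, RAF, MEK and ERK genes, which carry the signal from RASGRP3 onwards, gave 2 of 10 called with FHT-1015 at 4 h in 92-1 and 0 of 10 in MEL202 and in MP41, where 29.5%, 0.679% and 0.225% of all genes were. Of 10 genes, FHT-1015 at 24 h gave 4 higher and 2 lower in 92-1, 2 higher in MEL202 and 3 higher and 1 lower in MP41, and IDE196 gave 4 higher and 3 lower, where 60.6%, 18.8%, 36.1% and 58.1% of all genes were called. HRAS fell with both drugs in 92-1 (-0.75 and -0.71).

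Transcripts that report the output of this cascade were taken last. With IDE196, 8 of 10 listed output genes fell at 4 h and 10 of 10 at 24 h, with medians of -1.4 and -2.88 on the log2 scale, where 9.3% and 29.4% of all genes fell and their medians were 0.0139 and 0.0287. SPRY4, a feedback inhibitor of RAS signalling, fell 51.2-fold at 24 h (log2 -5.68, adjusted p = 9.73e-15). With FHT-1015 at 4 h, 2 rose and 4 fell of 9 in 92-1, 1 rose and 1 fell of 10 in MEL202, and 0 rose and 1 fell of 9 in MP41, where 29.5%, 0.679% and 0.225% of all genes were called. DUSP4, a phosphatase of ERK, fell then in 92-1 (-1.7) and MEL202 (-1.58, or -1.79 without the library with the fewest genes), and SPRY4 in MP41 (-1.01), as SPRY4 did with IDE196 at 4 h (-3.05). EPHA2 was called in MEL202 at 4 h only without that library (-1.56, adjusted p = 0.0129). SPRY2, another feedback inhibitor, rose at 4 h in 92-1 (1.58, adjusted p = 2.09e-09) and MEL202 (0.89, adjusted p = 0.0299, or 0.91, adjusted p = 0.0331, without that library), and it fell with IDE196 at 4 h (-1.95) and 24 h (-3.76), a difference between drugs that was not tested. With FHT-1015 at 24 h, 2 rose and 4 fell of 9 in 92-1, 0 rose and 4 fell of 10 in MEL202, and 1 rose and 4 fell of 9 in MP41, with medians of -0.14, 0.195 and -0.12, where 60.6%, 18.8% and 36.1% of all genes were called and their medians were -0.000817, -0.00551 and 0.0651. PHLDA1 fell in 92-1 (-2.55) and MEL202 (-2.38), DUSP4 in 92-1 (-2.64) and MP41 (-3.53), and CCND1, cyclin D1, in MEL202 (-3.43) and MP41 (-2.27). Of the 4 that fell in each line only 2 are named, so a gene may also have fallen in a line not given for it.

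Over the 16 group means, the genes whose log2(CPM + 1) pattern was most like that of a member were found among 10494 protein-coding genes by Pearson's r, for the 8 members with a mean of at least 5 CPM. For RASGRP3 they were IFITM2 (0.909), SNRNP70 (0.89) and ABCC5 (0.887), and for PRKCD WIPF1 (0.913), SYNPO (0.899) and PLXNA1 (0.894). PRKCA was followed most closely, by ALPK1 (0.983), NEDD4 (0.972) and PALMD (0.971), and PRKCH by ST6GALNAC4 (0.97), KIAA1191 (0.961) and NUAK1 (0.959). PRKCE had SLC38A7 (0.953), PRKCI IMPACT (0.959), PRKCZ CDIPT (0.96) and PRKD1 MROH6 (0.958) at the head of their lists. These group means come from 3 lines and share lines, libraries and DMSO samples, so the values are descriptions with no p.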

How the data were processed

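Poly(A)-selected RNA of 48 samples was sequenced. Per the file layout, the authors deposited unnormalised read counts for each gene in whole numbers; hg38 and limma are named in the submitters' processing notes, while the aligner and annotation are not given in the sources used here. Counts without regard to strand were taken, as 49.73% to 50.11% of stranded reads fell on the first strand. The 92 spike-in rows held 0 reads and were left out. Identifiers were matched to GENCODE release 29 (58552 of 58870 genes, 47420 under the identical version), and promoter sequences are RefSeq's (GRCh38.p14).

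Each experiment of 12 samples was fitted with edgeR 4.0.16 in R 4.3.3 (TMM, filterByExpr, quasi-likelihood F-tests, group means only). Lines were compared in a fit of 36 samples and drugs in a fit of 24. Calls needed an adjusted p (Benjamini-Hochberg, all genes tested in that comparison) under 0.05. SE is the log2 change divided by the square root of F. Shares of isoforms use CPM of 1 TMM scaling over 48 samples, per kilobase of exon. The code was tested on simulated data. Alternatives were relative log expression size factors, library size alone, no filter, DESeq2 1.42.0, limma 3.58.1 (voom with quality weights), summed strand columns, other sets of samples in the fit, a replicate block, and leaving out each library. The members and gene lists were chosen with earlier results of these data known. All 10 members are named; of each pathway list, up to 2 called genes a comparison are named, with the largest change at a mean of at least 5 CPM and no overlap of replicates. RASGRP1 was named after its values were seen. Some listed genes are not reported here. Counts are of reads, not molecules, and depth limits members with few reads, such as PRKCB and PRKCQ. The label of a DMSO set follows its experiment.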

Additional observations from a re-analysis of the deposited data

Results flagged for a closer look

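The effect of a drug differed between 4 h and 24 h, by a test of the difference in edgeR, for 13 gene and experiment pairs. Differences are the 24 h effect minus the 4 h effect on the log2 scale. With FHT-1015 in 92-1 they were PRKCD (-0.48, adjusted p = 0.0372), PRKCE (-0.77, adjusted p = 0.00415), PRKCH (1.82, adjusted p = 9.38e-07), PRKCQ (1.05, adjusted p = 0.00328), PRKCI (0.42, adjusted p = 0.0327) and PRKD1 (0.89, adjusted p = 0.0113). PRKCE differed in MEL202 (-1.30, adjusted p = 0.0288) and PRKCA in MP41 (1.1, adjusted p = 0.0127). With IDE196 in 92-1 they were PRKCA (0.74, adjusted p = 0.00951), PRKCH (0.89, adjusted p = 0.00028), PRKCZ (0.73, adjusted p = 0.00358), PRKD1 (1.02, adjusted p = 0.0197) and RASGRP3 (-1.24, adjusted p = 1.49e-06).

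The FHT-1015 effect differed among the 3 lines, by an F-test in 1 fit, for PRKCD at 4 h (adjusted p = 0.0282) and at 24 h (0.00611). At 24 h it also differed for PRKCH (adjusted p = 2.37e-06), PRKCZ (0.00559) and RASGRP3 (0.0302). No test for a single outlying sample was made within the groups of 3.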

How the results depend on the processing

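Counts of members called that moved by more than 1.5 times were these. In MEL202 at 4 h, 0 became 1 with DESeq2, 1 with voom and 2 with all 48 samples in 1 fit, and at 24 h 5 became 9 with voom and 8 both with only the 6 samples compared and with all 48. The count that differed between times went from 1 to 3 with DESeq2 in MEL202, and from 1 to 3 with DESeq2 and 2 with summed strands in MP41. In MP41 at 24 h 3 became 8 with voom and 6 with all 48, and its DMSO time count of 1 became 3 with no filter and with DESeq2. The count among lines at 4 h went from 1 to 0 with no filter and 2 with DESeq2. With all 48 samples the 4 h counts in 92-1 fell to 1 for FHT-1015 and to 1 for IDE196, as with only the 6 samples for IDE196. The cause of these moves was not tested. Only PRKCB, 92-1 minus MP41 in DMSO, reversed (0.58 with the IDE196 set of DMSO samples, an alternative chosen after the data were seen).

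Over all genes, calls in MEL202 at 4 h (108) became 207 with no filter, 375 with DESeq2, 0 with 6 samples and 842 with all 48, and at 24 h (2984) 8824 with voom, 6256 with 6 samples and 5733 with all 48. In MP41 they went from 35 to 122, 169, 650, 346 and 94 at 4 h (no filter, DESeq2, voom, 6 samples, all 48) and from 5617 to 9435 (voom) and 3352 (6 samples) at 24 h. With all 48 samples the 4 h calls in 92-1 went from 4631 to 2089 with FHT-1015 and from 2498 to 895 with IDE196.

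Leaving out 1 library at a time, members called ranged from 3 to 4 and 9 to 10 in 92-1 with FHT-1015 at 4 h and 24 h, from 0 to 1 and 3 to 6 in MEL202, 0 to 0 and 3 to 5 in MP41, and 1 to 3 and 5 to 8 with IDE196. Counts that differed between times ranged from 4 to 6, 0 to 3, 1 to 4 and 4 to 6 in the same order, the MP41 DMSO time count from 0 to 4, and the counts among lines from 0 to 2 and 3 to 5. Calls of all genes ranged from 28 to 137 and 1810 to 4030 in MEL202 and from 7 to 141 and 4371 to 7905 in MP41.

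Deviations of same-numbered libraries correlated above 0.1 in 10 of 18 pairs (-0.509 to 0.71), in all 3 pairs only for MP41 at 4 h (0.124 to 0.292), and the IDE196 arms share no numbers. The replicate block brought PRKCZ in MP41 at 24 h past the threshold (-0.59, adjusted p = 0.0462) and changed no other member's call.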
